A study of Mus musculus with 15 samples.

Results

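The cells described here are mouse neural progenitor cells that received a plasmid with a control short hairpin RNA, the reference condition of the series. The members are the 3 libraries labelled shControl, chosen by label, of 15 libraries that fall into 5 groups of 3, and their levels are described without a contrast to the other 12. Per the labels the cells were wild type and were grown with FGF2, EGF and heparin. A plasmid carrying the hairpin and EGFP was introduced, GFP-positive cells were sorted after 3 days, and total RNA extracted with TRIZOL was made into libraries with a SMART-seq2-type method, which copies whole transcripts into cDNA. The labels state neither the brain region and age that the cells came from nor the sequence of the control hairpin, and nothing says that the 3 libraries came from separate cultures, so their spread may be technical. Cells without a plasmid were not analysed here.

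Neural progenitor cells are dividing precursors of neurons, astrocytes and oligodendrocytes. In culture, FGF2 and EGF keep them cycling through receptor tyrosine kinases, and heparin, like heparan sulfate on the cell surface, helps FGFs bind their receptors. They are commonly recognised by the transcription factor Sox2 and the intermediate filament nestin, and progenitors kept in these factors often carry Olig2, a transcription factor of ventral and oligodendrocyte lineages.

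The 3 libraries held 45102748, 49356439 and 46075608 counts on annotated genes. Levels are given as CPM, a gene's counts per 1000000 gene counts of its library, which ranks genes by the reads they took, and as TPM, which divides each transcript's counts by its length and scales the sum to the same total. TPM is the scale used wherever genes are compared. Values after ± are SDs over the 3 libraries (n = 3), values listed by library are in the order shControl 1, 2 and 3, and a gene is counted as detected at a mean of 1 CPM or 1 TPM. A count of 3 corresponds to 0.0608 to 0.0665 CPM at these depths, and such floors cover counting error only. Detected genes numbered 12459 of 34989 at 1 CPM, of which 12226 are protein-coding, and 13582 genes had no count in any of the 3 libraries. On the TPM scale 11865 of 21986 protein-coding genes reached 1 TPM (54.0%), 8024 reached 10 TPM (36.5%) and 1849 reached 100 TPM (8.41%). The median over all protein-coding genes was 2.10 TPM, and gene lists below are read beside these shares.

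Library 2 stood apart from the others, which touches many values below. Over the 12459 detected genes 20.2% differed by more than 1.5-fold in CPM between libraries 1 and 2 and 10.7% between libraries 2 and 3, against 4.88% between libraries 1 and 3. Spearman correlations of CPM across genes were 0.978, 0.986 and 0.991 for the same pairs, as descriptions over genes, which are not replicates. The deviation of library 2 moved with transcript length. Among 9403 genes at 10 CPM or more, its median log2 deviation from the other libraries was 0.26 over the 2351 genes with the shortest transcripts and -0.47 over the 2349 with the longest. The corresponding values were -0.21 and 0.28 in library 1 and -0.04 and 0.18 in library 3. Of 735 distinct genes of the 39 lists at 1 TPM or more, 499 were lowest in library 2. Without library 2, 12488 genes were detected at 1 CPM and 94 of the top 100 by CPM stayed in it. The part of this length trend in the spread of single genes was not tested.

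The labelled cell type was checked with Sox2, Nes, Olig2 and Mki67, which were present in all 3 libraries. Sox2 (ENSMUSG00000074637.7, chr3:34650405-34652461, plus strand in GRCm38), a transcription factor of neural stem and progenitor cells, stood at 171, 161 and 174 TPM. These 3 values lie close together, with a mean of 169 ± 7.11 TPM. Nes (ENSMUSG00000004891.16, chr3:87971078-87980451, plus strand), which encodes nestin, stood at 103, 92.4 and 127 TPM, highest in library 3. Olig2 (ENSMUSG00000039830.9, chr16:91225457-91228677, plus strand) stood at 549, 393 and 614 TPM, lowest in library 2, and was the most abundant of the 4 markers per length. Mki67 (ENSMUSG00000031004.8, chr7:135689784-135716361, minus strand), the proliferation antigen Ki-67, stood at 11.2, 11.6 and 19.3 TPM, and library 3 was above both others. Its transcript is among the longest in the table, and its counts were 2821, 3639 and 5105.

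The 100 genes with the most counts in a library held 20.01, 23.8 and 20.6% of its counts, and 948, 751 and 928 genes together made up 50% of the counts, so library 2 was the most concentrated. Lars2, the mitochondrial leucyl-tRNA synthetase, ranked 1 with 25990.5, 46230.3 and 29143 CPM, and library 2 was the highest. Between 99.8 and 99.9% of its counts lay on a single transcript, and its transcripts share no run of 15 bases with the annotated mitochondrial ribosomal RNAs on either strand. Other ribosomal RNAs were not compared, and whether those reads come from the synthetase mRNA was not tested.

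Ckb, the brain creatine kinase that buffers ATP, ranked next with 8303, 10234 and 9709 CPM. Fabp7, the brain fatty acid binding protein of radial glia (ENSMUSG00000019874.11, chr10:57784881-57788450, plus strand), ranked 7 by CPM with 3404, 4384 and 3143 and 6 by TPM with 7625, 8668 and 6853. No other gene shares a run of 50 bases with its transcripts. Serpine2, a secreted inhibitor of thrombin and related proteases, stood at 2925 ± 158 CPM, and Igfbp2, a secreted binding protein of insulin-like growth factors, at 2632 ± 469.7 CPM. Scd2, a stearoyl-CoA desaturase, stood at 2989 ± 504 CPM, with library 2 the lowest. Tmsb4x, which binds actin monomers, stood at 2899.9 ± 585 CPM, and here library 2 was the highest.

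Eno1 held 4787 ± 249.7 CPM, Gapdh 2981 ± 213 and Ldha 2704 ± 254, all enzymes of the glucose to lactate route. Among structural genes Actb held 6550.0 ± 649 CPM, Actg1 2889 ± 215 and the alpha tubulin gene Tuba1a 3308 ± 242. Other members of the top 20 by CPM were Eef1a1, a translation elongation factor, at 3698 ± 600.3, Ppia, the prolyl isomerase cyclophilin A, at 3626 ± 576, Atp5b, the catalytic beta subunit of the ATP synthase, at 3512 ± 209, and H2afz, the histone variant H2A.Z, at 2799 ± 579. The SDs of neighbours in this order mostly overlap, as the plot of the 20 genes with the most counts shows.

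**Figure D1:**
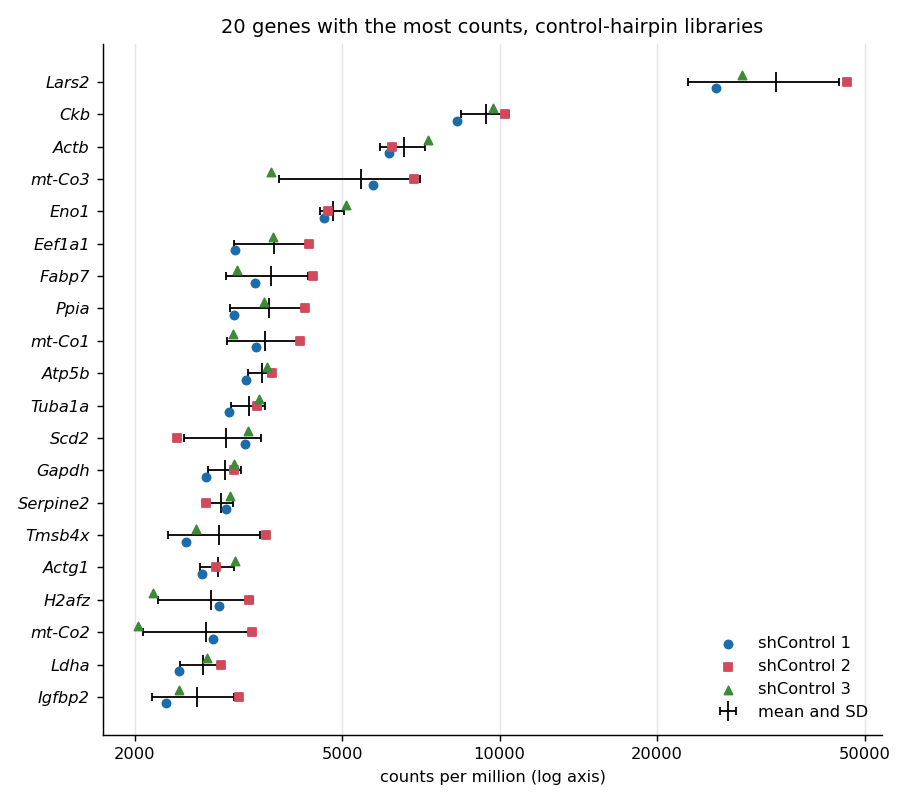
CPM (x axis, log scale) of the 20 genes with the highest mean CPM (y axis, ranked) in the 3 control-hairpin libraries; coloured symbols are libraries, vertical ticks are means and horizontal bars are SDs. Lars2 lies apart at 33788 ± 10890.1 CPM, Ckb follows at 9416 ± 998, and from Actb down most neighbours overlap.

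Mitochondrially encoded mRNAs made up 1.73, 2.02 and 1.36% of counts. The 3 cytochrome c oxidase subunits of the mitochondrial genome, mt-Co3 with 5721, 6871 and 3655 CPM, mt-Co1 with 3416, 4155 and 3089 CPM and mt-Co2 with 2831, 3352 and 2032 CPM, were in the top 20, each lowest in library 3. Of the 50-base runs of mt-Co3, 99.9% also occur in the nuclear pseudogene Gm28437, and 97.1% of those of Gm29216, which ranked 10 by TPM, occur in mt-Co1, so the division of reads between these copies is uncertain. The same holds for Tuba1a, of whose 50-base runs 72.9% occur in other genes, and for the histone gene Hist1h2ap, with 93.1%, which ranked 9 by TPM at 5185 ± 1623. Such runs made up 100% in mt-Co2, 51.1% in mt-Co1, 50.9% in Ftl1, 39.4% in Eef1a1 and 37.4% in Actg1, whose levels carry the same uncertainty, and from 0 to 26.0% in the other genes of both top 20 lists. Ranking per length kept 15 of the top 20 and 64 of the top 100 genes. Besides Hist1h2ap and Gm29216, the genes that entered the top 20 by TPM were Dbi, the acyl-CoA and diazepam binding protein, at 3676 ± 491 TPM, Txn1, thioredoxin, at 3401 ± 436 TPM, and Ftl1, ferritin light chain, at 3309 ± 372 TPM.

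Genes of progenitor identity were present nearly throughout. Of the progenitor list 32 of 35 genes reached 1 TPM, with a median of 38.0 TPM beside 2.10 TPM over all protein-coding genes. After Fabp7, the highest were Vim, the intermediate filament vimentin, at 1352 ± 109 TPM, and Id3, an inhibitor of basic helix-loop-helix factors, at 377 ± 28.8 TPM. Of the Id family's summed TPM, Id3 held 61.3% ± 1.21, Id2 29.0% ± 1.26 and Id1 9.29% ± 0.962, while Id4 held 0.425%. Among nuclear factor I genes, which act in gliogenesis, Nfix stood at 177, 129.8 and 194 TPM and Nfib at 112, 50.4 and 95.7 TPM, both lowest in library 2. Sox4, a transcription factor of the SoxC group, was even across libraries at 105, 107 and 111 TPM. The genes of the list below 1 TPM were Trim71, Lin28a and Lin28b, regulators of early embryonic timing, with means of 0.0696, 0.00724 and 0.00695 TPM.

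Astrocyte and radial glia genes had the highest median of the lineage lists, with 28 of 29 at 1 TPM or more and a median of 105 TPM. Their summed level was 10448, 11541 and 10377 TPM, beside 10836, 11762 and 10239.8 TPM for the progenitor list. Fabp7, counted in the progenitor list, alone gave 7625, 8668 and 6853 TPM of that list's sum, so the comparison depends on where this gene is placed. Dbi led the astrocyte list, followed by the metallothionein Mt1 at 1326, 1997 and 1587 TPM, highest in library 2. Slc1a3, the glutamate transporter GLAST of radial glia and astrocytes, stood at 1167, 689 and 907 TPM, lowest in library 2. Cst3, the secreted protease inhibitor cystatin C, stood at 783 ± 131 TPM, Apoe, the lipid carrier apolipoprotein E, at 676 ± 112 TPM, Mt3 at 738 ± 134 TPM, Acsbg1, an acyl-CoA synthetase, at 398 ± 59.8 TPM and Mt2 at 283 ± 44.1 TPM. Some genes of the list were far below this median. Gfap, the intermediate filament of mature astrocytes, stood at 3.39, 1.74 and 1.90 TPM, highest in library 1. Aqp4, the water channel of astrocyte endfeet, stood at 1.61 ± 0.643 TPM, and Gjb6, a gap junction protein, was the only gene of the list under 1 TPM.

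Oligodendrocyte progenitor genes were present at widely differing levels, with 15 of 18 at 1 TPM or more and a median of 16.8 TPM. Olig1, the partner of Olig2, was its most abundant gene at 1742, 1675 and 2024 TPM. The proteoglycan genes Cspg5 and Bcan followed Olig2 with 343 ± 15.8 and 317 ± 32.3 TPM, and Ptprz1, a receptor phosphatase that carries chondroitin sulfate, stood at 333, 149 and 249.9 TPM, with library 2 lowest. Several genes known from committed oligodendrocyte progenitors were lower. Pdgfra, the PDGF receptor alpha, stood at 4.87, 3.37 and 5.24 TPM, and Sox10, a factor of the committed lineage, at 3.18, 2.33 and 3.30 TPM. Cspg4, which encodes the NG2 proteoglycan, stood at 21.7 ± 4.58 TPM and Nkx2-2 at 33.5 ± 4.07 TPM. In bulk RNA, fewer cells with a gene and less RNA per cell cannot be told apart, which holds for all low values here.

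Of the myelinating oligodendrocyte list 7 of 13 reached 1 TPM, with a median of 1.03 TPM. The share was near the 54.0% of all protein-coding genes, and the median was under their 2.10 TPM. Cnp, a phosphodiesterase of myelinating cells that other cells also make, stood at 90.2 ± 8.85 TPM. Mag, a glycoprotein of myelin, had a mean of 0.139 TPM with counts of 2, 5 and 3, and Mog had no count.

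Neuronal genes were present at widely differing levels. The list had 19 of 33 genes at 1 TPM or more and a median of 1.57 TPM, under that of all protein-coding genes. The share at 1 TPM or more was near the 54.0% of all protein-coding genes. Gap43, a growth cone protein, led with 461, 498 and 548 TPM, and Map2, a microtubule-associated protein of dendrites, followed with 193, 97.7 and 158 TPM, lowest in library 2. Stmn3, a microtubule regulator, stood at 137 ± 21.9 TPM and Mapt, the microtubule protein tau, at 41.9 ± 3.54 TPM. Tubb3, the beta tubulin of young neurons, stood at 7.87, 8.43 and 10.8 TPM, and Dcx, the doublecortin of migrating neurons, at 1.63, 0.894 and 1.11 TPM. Rbfox3, which encodes NeuN of mature neurons, stood at 1.57 ± 0.341 TPM. The vesicular glutamate transporter genes Slc17a7 and Slc17a6 had means of 0.313 and 0 TPM.

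Proneural and intermediate progenitor genes were present in part. Hes6, which opposes Hes1, stood at 241 ± 34.6 TPM, Gadd45g, a growth arrest gene, at 77.7 ± 7.12 TPM, and the Notch ligand genes Dll3 and Dll1 at 22.8 ± 5.12 and 20.9 ± 4.29 TPM. Eomes and Tbr1, of dorsal intermediate progenitors and their neurons, had means of 0.118 and 0.402 TPM with counts of 9, 16 and 10 and 12, 9 and 5. Neurog2, the dorsal proneural factor, had counts of 1, 1 and 0, at or below the floor of 3. In all 10 of 19 genes of this list reached 1 TPM, a share near the 54.0% of all protein-coding genes.

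Markers of other cell types that a culture or sort could hold were at or near 0 for the most part. Of the microglia and blood list 3 of 18 reached 1 TPM, and 7 had no count at all. Its summed level was 38.5, 32.3 and 33.7 TPM. Aif1 and Cx3cr1, which define microglia, had counts of 0, 0 and 0 and 0, 2 and 0. Of the endothelial and mural list 3 of 19 reached 1 TPM. Pecam1, an adhesion molecule of endothelium, stood at 18.2, 31.6 and 27.4 TPM, lowest in library 1, while Cldn5, an endothelial tight junction gene, had counts of 0, 1 and 0 and Kdr, the VEGF receptor, a mean of 0.120 TPM. The summed level of that list was 29.3, 43.1 and 41.4 TPM.

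The fibroblast list had 4 of 16 genes at 1 TPM or more, with a summed level of 112, 92.6 and 101 TPM. These were Thy1 at 38.8 ± 3.32 TPM, Prrx1 at 29.1 ± 6.04 TPM, Fbln1 at 26.5 ± 4.86 TPM and Foxc1 at 6.25 ± 1.59 TPM, while the collagen gene Col1a1 had a mean of 0.219 TPM and Col1a2 of 0.0450 TPM. The ependymal list had 4 of 13, led by Foxj1, the factor for motile cilia, at 4.71 ± 0.465 TPM. The neural crest list had 6 of 13, led by Pmp22, a membrane protein of myelin and of many other cells, at 52.99 ± 6.78 TPM. Its other members at 1 TPM or more, Sox10 and Egr2 among them, stood at 2.93 TPM or less. The share of this list was the nearest of these lists to the 54.0% of all protein-coding genes. Of the pluripotency and germ cell list 2 of 12 reached 1 TPM. Pou5f1, the pluripotency factor Oct4, had no count. The plot of marker lists sets these levels beside the neural ones.

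**Figure D2:**
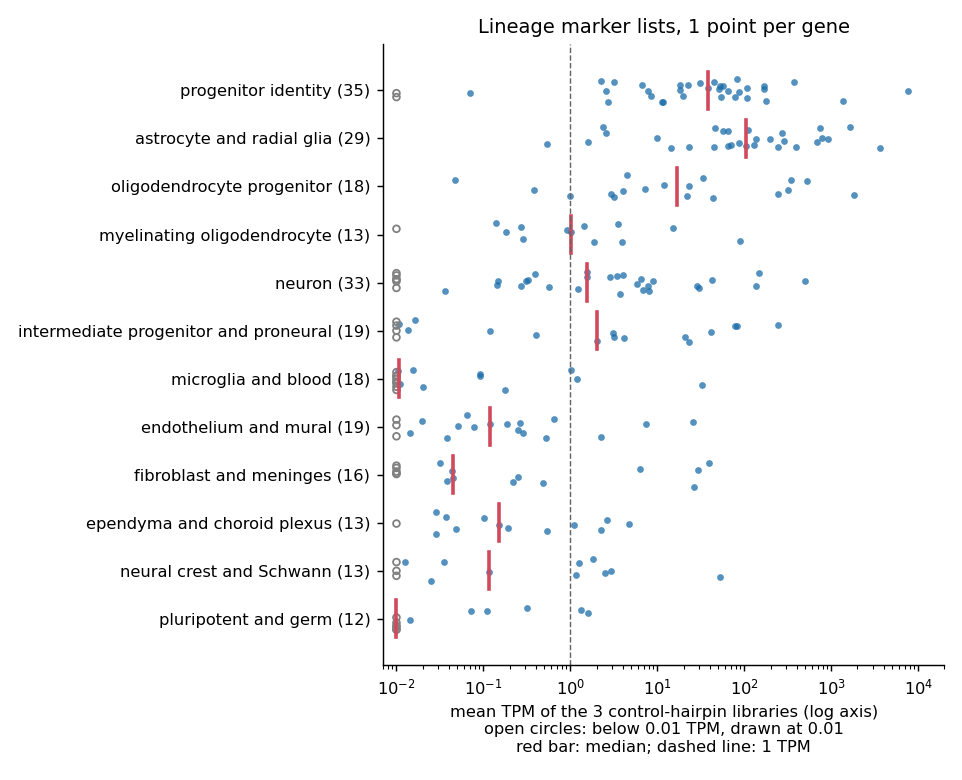
Mean TPM (x axis, log scale) of every gene of 12 lineage marker lists (y axis, number of genes in brackets); each point is a gene, open circles are genes below 0.01 TPM, red bars are medians and the dashed line is 1 TPM. The progenitor and astrocyte lists have medians of 38.0 and 105 TPM, and the non-neural lists have medians below 1 TPM with a few genes above it.

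Regional identity was read from transcription factors that pattern the neural tube. The telencephalic list had 7 of 12 genes at 1 TPM or more, a share near the 54.0% of all protein-coding genes. Lhx2, a LIM homeobox factor of the forebrain, stood at 60.1, 38.7 and 52.8 TPM, lowest in library 2. Of further forebrain patterning factors, Emx2 stood at 14.3 ± 3.09 TPM, Sp8 at 5.21 ± 0.818 TPM, Dmrta2 at 3.86 ± 0.413 TPM and Six3 at 1.43 ± 0.230 TPM. Emx1, Fezf2, Fezf1, Hesx1 and Rax were each under 0.1 TPM.

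The dorsal and ventral telencephalic lists each had some genes above 1 TPM, a level that 54.0% of all protein-coding genes reached. Of the dorsal pallial list 3 of 14 reached 1 TPM, namely Emx2, Pax6 at 13.2, 10.2 and 10.5 TPM and the hedgehog effector Gli3 at 1.68, 0.794 and 1.42 TPM. Of the ventral list 9 of 20 did, a share nearer to that of all protein-coding genes than the dorsal one. Etv1, an ETS factor, stood at 83.9, 49.7 and 73.2 TPM, lowest in library 2, and the homeobox genes Meis2 at 23.2 ± 4.91 TPM and Meis1 at 11.4 ± 2.61 TPM. Gsx1, a homeobox gene of the ganglionic eminence, stood at 6.69, 4.96 and 9.27 TPM, while its paralogue Gsx2 had a mean of 0.339 TPM. Foxp1 and Ebf1, factors of striatal neurons, stood at 6.23 ± 2.01 and 3.09 ± 0.546 TPM. Dlx2, of committed ventral precursors, had a mean of 0.582 TPM, and Nkx2-1, the factor of the medial ganglionic eminence, a mean of 0.0225 TPM with counts of 1, 1 and 2.

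Most genes of the lists of more posterior regions were below 1 TPM, a level that 54.0% of all protein-coding genes reached. Of the diencephalic and midbrain list 4 of 28 reached 1 TPM and 9 had no count. Tcf7l2, a Wnt effector, stood at 33.1, 25.4 and 33.4 TPM, and the homeobox genes Otx1, Otx2 and En2 of forebrain and midbrain at 9.70, 5.31 and 9.49, 3.48, 1.18 and 1.998 and 2.61, 1.49 and 2.65 TPM. Of the hindbrain and spinal list 6 of 20 did. Dbx2 (ENSMUSG00000045608.7, chr15:95623563-95655960, minus strand), a homeobox gene known for patterning the spinal cord, stood at 84.0, 78.4 and 74.0 TPM, and the 3 libraries lay close together. Nkx2-2, known from the ventral neural tube and from oligodendrocyte progenitors, stood at 34.7, 29.0 and 36.9 TPM, and Gbx2, a homeobox gene of the anterior hindbrain and of forebrain territories, at 10.01, 9.05 and 11.6 TPM. Nkx6-2, of the ventral neural tube, stood at 6.18 ± 0.331 TPM, and the hindbrain segment gene Egr2 at 2.48 ± 0.895 TPM. None of 39 Hox genes, which mark the hindbrain and spinal cord along the body axis, reached 1 TPM, and 26 of them had no count. Their summed level was 0.825, 0.437 and 0.716 TPM. The plot of regional genes sets Dbx2 and Nkx2-2 beside the forebrain genes.

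**Figure D3:**
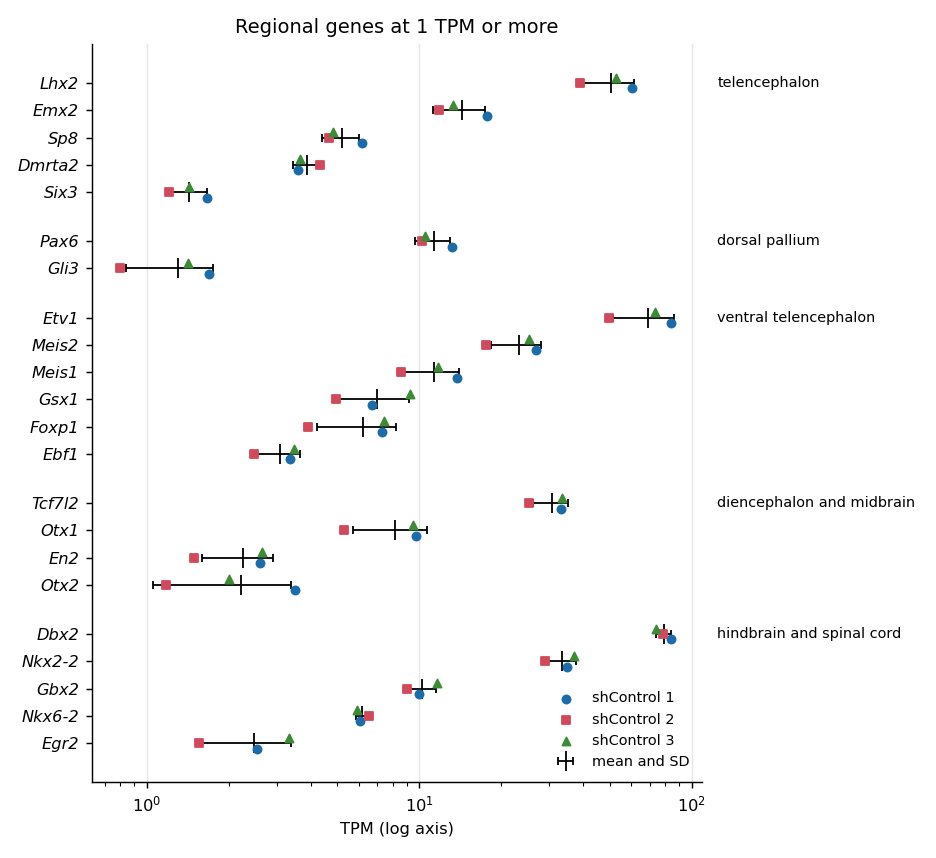
TPM (x axis, log scale) of genes of the 5 regional lists at 1 TPM or more (y axis, grouped by the list named at the right, each gene drawn once) in the 3 control-hairpin libraries; ticks and bars are means and SDs. Of the genes drawn Dbx2, Etv1 and Lhx2 lie highest, between 50.6 and 78.8 TPM, and library 2 is the lowest for most genes.

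Receptors of the hedgehog pathway and Zic factors were present, and the ligand gene Shh was low. Of the list 13 of 16 genes reached 1 TPM, with a median of 2.53 TPM. Gas1, a hedgehog co-receptor, stood at 92.4, 87.9 and 86.8 TPM, Smo, the signal transducer, at 32.2 ± 6.06 TPM and Ptch1, the receptor and a target of the pathway, at 10.8, 6.92 and 10.9 TPM. Zic2, a zinc finger factor of the dorsal neural tube, stood at 2.43 ± 0.318 TPM. The transcriptional effectors Gli2 and Gli3 stood at 1.59 ± 0.480 and 1.30 ± 0.457 TPM and Gli1, which the pathway induces, at a mean of 0.0289 TPM with counts of 0, 0 and 6. Shh, the ligand, had counts of 29, 19 and 39 and a mean of 0.381 TPM.

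Genes of dividing cells were present throughout. All 24 genes of the G1 and S list, all 40 replication genes and all 40 mitotic genes reached 1 TPM, with medians of 35.1, 109 and 65.0 TPM. Ccnd2 and Ccnd1, D-type cyclins, and their kinase Cdk4 were the highest of these lists. Ccnd2 stood at 1481, 1497 and 1759 TPM, Ccnd1 at 1279, 1140.5 and 1439 TPM and Cdk4 at 1226, 1398 and 1519 TPM, with library 3 the highest for all of them. Of the D cyclin TPM, Ccnd2 held 52.6% ± 1.41, Ccnd1 42.8% ± 1.53 and Ccnd3 4.62% ± 0.124. Cdk6, the other partner of the D cyclins, held 0.311% of the summed Cdk4 and Cdk6 TPM, at 4.28 ± 0.880 TPM. Ccna2, the S phase and G2 cyclin A2, stood at 254 ± 39.9 TPM, and the transcription factor Myc at 115, 84.5 and 146 TPM, highest in library 3. The E cyclins of S phase entry stood at 62.8 ± 5.92 TPM for Ccne1 and 45.2 ± 9.41 TPM for Ccne2, the former the higher.

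Replication genes were led by Rrm2, the regulated subunit of ribonucleotide reductase, at 658, 454 and 579 TPM and by Pcna, the sliding clamp of DNA polymerase, at 517, 537 and 468 TPM. The clamp loader genes Rfc4 and Rfc2 stood at 226 ± 22.2 and 195 ± 12.6 TPM, and Rrm1 at 219.7 ± 38.4 TPM. Of the replicative helicase, Mcm6 was the most abundant subunit at 216 ± 29.9 TPM, and Mcm3, Mcm7 and Mcm5 stood at 167, 155 and 154 TPM. Mitotic genes were led by Cdk1, the kinase that starts mitosis, at 506, 554 and 506 TPM and by Ube2c, the ubiquitin conjugating enzyme of the anaphase-promoting complex, at 449.9 ± 22.7 TPM. Ccnb1, the cyclin B1 partner of Cdk1, stood at 405, 275 and 356 TPM. The centromeric histone gene Cenpa stood at 324 ± 21.4 TPM, the chromosomal passenger gene Birc5 at 269 ± 27.3 TPM and Cdc20, an activator of the anaphase-promoting complex, at 249 ± 15.2 TPM. Mki67 was low in this company at 14.1 ± 4.56 TPM.

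Inhibitors of the cycle were also present. All 14 genes of the inhibitor and p53 list reached 1 TPM, with a median of 49.0 TPM. Cdkn1a, the p21 inhibitor that p53 induces, stood at 529, 600.4 and 606 TPM, lowest in library 1. Trp53 itself stood at 120.0, 89.7 and 141 TPM, and the p53 target gene Ccng1 at 255, 174 and 199.5 TPM. Mdm2, which opposes p53, stood at 43.4 ± 11.4 TPM. Of the INK4 family, which blocks Cdk4 and Cdk6, Cdkn2d held 45.6% ± 1.32 of the summed TPM, Cdkn2c 40.3% ± 1.96, Cdkn2b 9.39% ± 0.874 and Cdkn2a 4.78% ± 0.927. Cdkn1b, the p27 inhibitor, stood at 11.8 ± 0.820 TPM and Cdkn1c, the p57 inhibitor, at 5.87 ± 0.369 TPM.

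Glycolytic enzymes were among the most abundant RNAs, and for most steps a single isozyme gene held nearly all of the RNA. Of the list 28 of 35 genes reached 1 TPM, and their summed level was 19202, 18317 and 20649.8 TPM. Per length, Eno1 led with 4179, 3713 and 4465 TPM, followed by Gapdh with 3525, 3543 and 3892 TPM, Ldha with 2806, 2984 and 3089 TPM and Pkm with 1960.3, 1609.9 and 2116 TPM. Aldoa stood at 1441 ± 91.9 TPM, Tpi1 at 1372 ± 53.3 TPM, Pgam1 at 1070.4 ± 71.0 TPM and Pgk1 at 1069 ± 42.5 TPM, the last pair within their SDs of each other. Hk1, the hexokinase that traps glucose in the cell, stood at 87.7, 42.8 and 76.5 TPM, lowest in library 2.

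As shares of family TPM, Eno1 held 99.9% of the enolase RNA and the neuronal enolase Eno2 0.0784%, although 25.3% of the 50-base runs of Eno1 also occur in the copy Eno1b. Pgam1 held 99.9% and Pkm all of its family, since Pklr, the liver and red cell pyruvate kinase, had no count. Hk1 held 92.1% ± 2.86 of the hexokinase RNA and Hk2 7.18% ± 2.31. Ldha, the lactate dehydrogenase subunit of glycolytic tissues, held 89.9% ± 0.712 and Ldhb 10.1% ± 0.712. Aldoa held 88.0% ± 0.744 of the aldolase RNA, and Aldoc, the brain aldolase of astrocytes, 11.9% ± 0.741. Phosphofructokinase was the exception, with 46.9% ± 3.28 for the liver type Pfkl, 31.5% ± 3.04 for the platelet type Pfkp and 21.6% ± 0.739 for the muscle type Pfkm. Of the glucose transporters compared, Slc2a1 (GLUT1) held 70.6% ± 4.32 and Slc2a3 (GLUT3) 29.4% ± 4.32. The lactate exporters Slc16a1 and Slc16a3 held 62.8% ± 5.42 and 34.2% ± 5.31 of theirs.

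Genes of mitochondrial oxidation were present nearly throughout. All 34 genes analysed of the citric acid cycle and pyruvate entry list reached 1 TPM, with a median of 206.4 TPM. Mdh2 and Mdh1, the malate dehydrogenases, stood at 871 ± 34.2 and 731 ± 34.0 TPM, Sdhb of succinate dehydrogenase at 697 ± 77.1 TPM, Mpc1 of the pyruvate carrier at 604 ± 49.1 TPM and Cs, citrate synthase, at 508, 374 and 529 TPM. Of the pyruvate dehydrogenase kinases, which close pyruvate entry, Pdk3 held 44.4% ± 2.26, Pdk1 34.0% ± 2.71, Pdk2 20.03% ± 1.40 and Pdk4 1.55% of the summed TPM. Nuclear genes of oxidative phosphorylation had the highest median of the nuclear-encoded lists, 456 TPM, with 94 of 98 at 1 TPM or more. Atp5b led with 3404, 3603 and 3787 TPM, followed by Atp5g3, an ATP synthase ring subunit, at 2396, 2764 and 2252 TPM, Ndufc2 of complex I at 1947, 2542 and 1813 TPM and Cox8a of complex IV at 1733, 2325 and 2052 TPM. In this list, unlike most others, library 2 was the highest for 81 of 94 genes. Of the genes of this list at 10 CPM or more, 84 of 91 belong to the 2351 genes with the shortest transcripts described above, and the part of the length trend was not tested. The 13 mitochondrially encoded genes summed to 34543, 36001 and 25773 TPM, lowest in library 3.

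Biosynthetic routes that branch from glycolysis were present as well. Of the pentose phosphate, serine and folate list 27 of 28 reached 1 TPM. Phgdh, the enzyme that opens serine synthesis, stood at 417, 503 and 534 TPM, followed by Tkt and Taldo1 of the pentose phosphate route at 370.0 ± 36.8 and 354 ± 18.6 TPM and Psat1, the next serine enzyme, at 355 ± 34.6 TPM. All 22 genes of the glutamine and amino acid list did. Slc3a2, the heavy chain of amino acid exchangers, stood at 362, 286 and 389 TPM and its light chain partner Slc7a5 at 180.4, 118 and 195 TPM. Asns, asparagine synthetase, stood at 200.7 ± 32.8 TPM. Glul, glutamine synthetase, stood at 81.1, 52.9 and 59.1 TPM, highest in library 1.

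Genes of fatty acid breakdown and of lipid synthesis were both present. Of the oxidation list 19 of 21 genes reached 1 TPM with a median of 78.4 TPM. Acadl, the long chain acyl-CoA dehydrogenase, stood at 281 ± 22.2 TPM and Hadhb of the trifunctional protein at 262 ± 35.0 TPM. Of the carnitine palmitoyltransferase 1 RNA, the brain type Cpt1c held 58.7% ± 3.34 and the liver type Cpt1a, which admits fatty acids to mitochondria, 41.0% ± 3.31. Of the lipid and sterol synthesis list 34 of 35 did, with a median of 114 TPM. Scd2 led with 1077, 702 and 1060.2 TPM and held 89.0% ± 0.462 of the RNA of Scd1 and Scd2. The sterol enzymes Fdps, Hmgcs1 and Msmo1 stood at 694, 799 and 846, 703, 451 and 597 and 369, 296 and 349 TPM. Library 2 was the lowest for 28 of 34 genes of this list, beside 499 of 735 distinct genes of all lists. Of these 34 genes, 12 belong to those with the longest transcripts and 5 to those with the shortest. The part of the length trend was not tested.

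**Figure D4:**
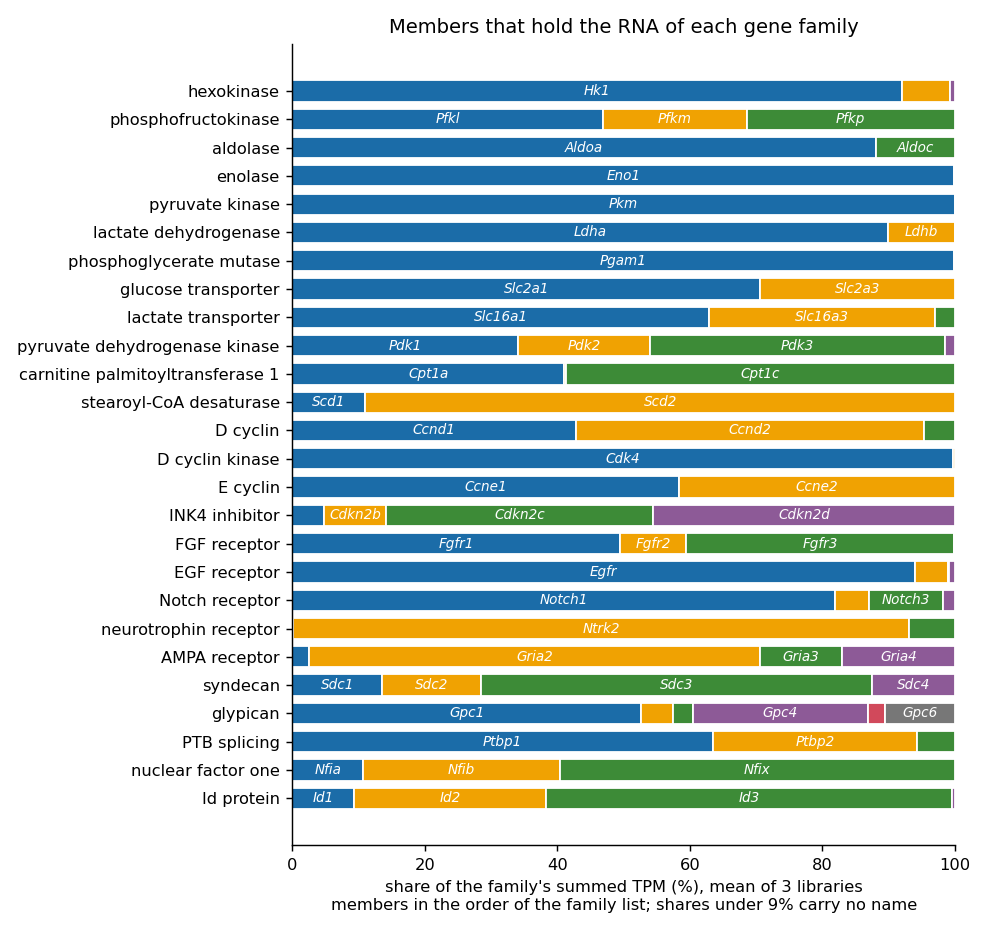
Share of a family's summed TPM (x axis, percent, mean of 3 control-hairpin libraries) held by each member for 26 gene families (y axis); coloured segments are members and segments under 9% carry no name. Enolase, pyruvate kinase, phosphoglycerate mutase and D cyclin kinase RNA lies almost wholly in 1 gene, while phosphofructokinase, FGF receptor and INK4 inhibitor RNA is divided.

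Receptors for the growth factors in the medium were present, while the factors themselves were made at low levels. Of 41 growth factor receptor genes 30 reached 1 TPM, and library 2 was the lowest for 28 of them. Of the 25 at 10 CPM or more, 16 belong to the 2349 genes with the longest transcripts. Egfr, the EGF receptor (ENSMUSG00000020122.16, chr11:16752203-16918158, plus strand), stood at 67.0, 40.4 and 69.4 TPM and held 93.9% ± 0.833 of the TPM of its family. Erbb2, its partner, held 5.09% ± 0.656. Fgfr1 stood at 80.0, 54.2 and 74.9 TPM, Fgfr3 at 57.9, 48.5 and 63.4 TPM and Fgfr2 at 18.0, 9.25 and 15.1 TPM, all lowest in library 2. As shares, Fgfr1 held 49.5% ± 1.56, Fgfr3 40.6% ± 3.15 and Fgfr2 9.87% ± 1.63, and Fgfr4 held 0.0610%. For Fgfr1, Fgfr2, Fgfr3 and Egfr the spread of the shares between libraries was smaller, relative to their means, than that of the levels. A share as high as that of Egfr leaves little room to vary.

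The most abundant receptor gene of the list was Ntrk2, the BDNF receptor TrkB, at 208, 174 and 198 TPM, with 93.0% ± 0.907 of the neurotrophin receptor RNA. Ddr1, a collagen receptor, stood at 120.1, 81.8 and 117 TPM, Bmpr1a, a BMP receptor, at 63.9, 31.7 and 48.9 TPM, Fgfrl1, an FGF receptor without a kinase, at 38.6 ± 4.04 TPM and Insr, the insulin receptor gene, at 34.4 ± 8.86 TPM. Among ligands, 18 of 40 reached 1 TPM, a share not far from the 54.0% of all protein-coding genes. Their median was 0.812 TPM, beside 2.10 TPM over all protein-coding genes. Ptn, pleiotrophin, a heparin-binding growth factor, was far above the rest at 1854, 1904 and 1815 TPM, and the 3 libraries lay close together with a mean of 1857 ± 44.4 TPM. Vegfa stood at 125, 79.8 and 107 TPM, Bmp7 at 95.7, 69.9 and 95.3 TPM, Wnt7b at 30.6 ± 4.17 TPM and Fgf1 at 29.3, 16.5 and 25.9 TPM. Hbegf, the heparin-binding EGF-like ligand of Egfr, stood at 23.8, 21.2 and 21.5 TPM. Fgf2 and Egf, the factors supplied in the medium, had means of 0.412 and 0.321 TPM.

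Heparan sulfate carriers and enzymes, which present FGFs to their receptors, were present at 24 of 28 genes with a median of 15.6 TPM. Sulf2, a sulfatase that trims heparan sulfate outside the cell, stood at 209, 152 and 202.4 TPM and Sdc3, a syndecan of neural cells, at 173, 108 and 183 TPM. The chain polymerase genes Ext2 and Ext1 stood at 91.1 ± 14.7 and 47.6 ± 10.1 TPM. Of the syndecans Sdc3 held 59.04% ± 5.07 of the summed TPM, and of the glypicans Gpc1 held 52.6% ± 7.12 and Gpc4 26.5% ± 4.76. Agrn, the proteoglycan agrin, stood at 52.2 ± 5.47 TPM.

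Surface antigens were led by tetraspanins. Of the antigen and adhesion list 32 of 40 genes reached 1 TPM, with a median of 34.2 TPM. Cd81, a tetraspanin, stood at 1150.5, 1071 and 1178 TPM, Cd63 at 934, 1079 and 882 TPM and Cd9 at 385, 379.7 and 408 TPM. Bsg, the immunoglobulin family protein basigin that escorts lactate transporters, stood at 633, 679 and 698 TPM. Itgb1, integrin beta 1, stood at 552, 289 and 404 TPM, and library 2 was the lowest. Among genes used to isolate stem cells, Prom1, which encodes the antigen CD133, stood at 2.78, 2.23 and 3.15 TPM, and Fut4, a fucosyltransferase that can make the antigen SSEA-1, at 0.823, 0.561 and 0.747 TPM. Cd24a, an antigen of progenitors and young neurons, stood at 79.1 ± 13.8 TPM. Dag1, dystroglycan, stood at 105 ± 34.9 TPM, Ncam1 at 119, 53.4 and 112 TPM and Cdh2, N-cadherin, at 91.4 ± 27.0 TPM.

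Of Notch pathway genes 18 of 20 reached 1 TPM. Notch1 stood at 37.3, 26.6 and 42.5 TPM and held 81.9% ± 0.980 of the receptor RNA, with 11.2% ± 0.739 in Notch3. The fringe gene Lfng, which modifies Notch for its ligands, stood at 152, 137 and 160.1 TPM. The gamma secretase genes that release the Notch fragment were present: Psenen at 152 ± 24.7 TPM, Aph1a at 103 ± 6.32 TPM and Ncstn at 74.7 ± 14.9 TPM. The effector genes Hes1 and Hes5 stood at 56.1, 54.0 and 51.5 and 33.6, 49.4 and 31.2 TPM, Hes5 highest in library 2. Transmitter receptor and channel genes had 35 of 48 at 1 TPM or more, with a median of 5.61 TPM. Ednrb, the endothelin receptor B of glia and progenitors, led with 417, 205 and 302 TPM, lowest in library 2. Gria2, the AMPA receptor subunit that limits calcium entry, stood at 89.6, 45.7 and 71.4 TPM and held 67.9% ± 1.07 of the AMPA receptor RNA. Gabrg1, a GABA receptor subunit, stood at 92.6, 48.6 and 51.2 TPM and the metabotropic glutamate receptor gene Grm5 at 65.6, 39.2 and 53.7 TPM.

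Regulators of splicing set the background for isoforms. Of the list 23 of 28 reached 1 TPM. Hnrnpa2b1 and Hnrnpa1, general repressors of exon inclusion, stood at 1927, 1669 and 1578 and 767, 648 and 684 TPM. Ptbp1, the polypyrimidine tract binding protein of non-neuronal cells and progenitors, stood at 179, 117 and 202.5 TPM, and its paralogue Ptbp2, known from young neurons, at 99.4, 59.2 and 82.9 TPM. Ptbp1 held 63.5% ± 3.61 of the summed TPM of the 3 paralogues. The neuronal regulators Rbfox3 and Rbfox1 stood at 1.57 ± 0.341 and 1.14 ± 0.440 TPM, Srrm4 had a mean of 0.148 TPM, and the epithelial regulators Esrp1 and Esrp2 had means of 0.0172 and 0.178 TPM.

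Isoform shares were read as a transcript's TPM over its gene's TPM. Among 7118 protein-coding genes with several transcripts and at least 10 TPM, the leading transcript held a median of 73.5% of the gene's TPM, and it was the same transcript in all 3 libraries for 89.7% of them. In 80.4% of these genes it held over 50%, and in 28.0% over 90%. Among 69 genes listed for isoforms, 42 had a transcript above 50%. That list includes Sox2 and Olig2, which have a single transcript, so its count is not on the same basis as the 80.4%. Shares are estimates by a model that divides reads among overlapping transcripts, and short transcripts gain share when counts are divided by length.

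Pkm, the gene of muscle and proliferative pyruvate kinase, carries a pair of mutually exclusive exons. Its transcript with the M2 exon held 94.3, 95.9 and 90.9% of the Pkm TPM and the transcript with the M1 exon 2.26, 2.28 and 2.18%. The M2 form is known from dividing cells and the M1 form from muscle and neurons. The 2 exons are both 167 bases long and are printed here because the division of Pkm reads rests on them. They lie on the plus strand at chr9:59675568-59675734 for M2 and chr9:59675029-59675195 for M1 in GRCm38, are read from the GENCODE M21 transcripts 5′ to 3′, and capitals mark the 64 positions at which they differ.
Pkm M2 exon: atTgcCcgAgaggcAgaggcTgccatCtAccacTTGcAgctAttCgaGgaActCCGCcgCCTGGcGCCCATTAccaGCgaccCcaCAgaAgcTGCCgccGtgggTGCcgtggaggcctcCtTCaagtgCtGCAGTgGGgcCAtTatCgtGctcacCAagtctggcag
Pkm M1 exon: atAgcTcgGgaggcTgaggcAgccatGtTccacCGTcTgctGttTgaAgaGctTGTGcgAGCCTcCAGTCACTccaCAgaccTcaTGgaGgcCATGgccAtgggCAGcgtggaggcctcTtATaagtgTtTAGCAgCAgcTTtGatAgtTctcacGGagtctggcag
With 103 of 167 bases alike (61.7%), each exon has stretches of its own, and the M2 share was above 90% in each library.

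FGF receptors take either of a pair of exons for the last part of the third immunoglobulin domain, which sets ligand preference: IIIc is known from mesenchymal and neural cells and IIIb from epithelia. Transcripts with the IIIc exon held 71.2, 80.9 and 77.3% of the Fgfr1 TPM, 54.9, 51.9 and 53.8% of the Fgfr2 TPM and 92.1, 95.3 and 86.0% of the Fgfr3 TPM. Transcripts with the IIIb exon held 16.04% ± 1.31 in Fgfr1, 7.45% ± 2.19 in Fgfr2 and 0.446% ± 0.462 in Fgfr3. In Fgfr1 nearly all of this, 15.8% of the gene's TPM, was in a transcript annotated for nonsense-mediated decay. Not all transcripts hold either exon, so the shares do not sum to 100%.

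Cdkn2a encodes a pair of unrelated inhibitors from separate starts: p16Ink4a, which blocks Cdk4 and Cdk6, and p19Arf, which stabilises p53 through Mdm2. The gene itself was low, at 10.4, 15.8 and 11.6 TPM, highest in library 2. The p19Arf transcript of 169 residues held 79.3, 74.8 and 81.8% of its TPM and the p16Ink4a transcript of 168 residues 20.7, 25.2 and 18.2%. The opening 60 coding bases of each are shown because only the 5′ exons separate the transcripts; capitals mark the start codon, and both lie on the minus strand.
p19Arf (chr4:89294464-89294523): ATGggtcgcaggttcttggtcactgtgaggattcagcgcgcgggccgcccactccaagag
p16Ink4a (chr4:89282052-89282111): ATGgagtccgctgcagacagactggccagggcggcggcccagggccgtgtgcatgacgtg
The estimated counts behind these shares were 185, 329 and 223 for p19Arf and 45.9, 106 and 47.2 for p16Ink4a.

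Receptor and surface genes were divided between forms with differing ends. The full Egfr transcript of 1210 residues held 54.9, 48.4 and 48.6% of the Egfr TPM, and a shorter one of 655 residues, which ends before the kinase domain, held 40.5, 45.8 and 45.2%. As a share of raw counts the shorter form held 19.9%, since its transcript is much shorter. Ptprz1 was divided between the long receptor of 2312 residues, with 47.2% ± 1.79, and the secreted phosphacan form of 1612 residues, with 44.6% ± 3.13. The short receptor of 1463 residues held 7.04, 2.88 and 10.8%, lowest in library 2. Ncam1 was led by a form of 725 residues, the lipid-anchored type, with 60.4, 54.3 and 60.0%, over the transmembrane types of 849 and 848 residues with 28.5% ± 2.37 and of 1088 residues with 9.10% ± 1.49. Cd44, the hyaluronan receptor, was the least even of these genes. Its standard form held 43.0, 35.0 and 62.3% and a form with variant exons 53.8, 63.8 and 36.0%, so the order of the 2 forms differed between libraries.

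Bin1 and Clta, which have a neuronal form, carried mostly the other. Bin1, a membrane-bending protein, had 92.0% ± 0.597 in a form of 477 residues and 7.99% ± 0.597 in the form of 588 residues known from neurons. Clta, clathrin light chain A, had 87.5% ± 1.57 in the form without its neuronal exons. App, the amyloid precursor gene, was nearly evenly divided. The 695-residue form typical of neurons held 46.5, 55.6 and 50.6% and forms with the protease inhibitor exon 52.9, 43.6 and 48.7%, in an order that library 2 shared with library 3 and not with library 1. The laminin receptor Itga6 had 53.8% ± 5.43 in the A form and 7.80% ± 1.88 in the B form, which differ in the cytoplasmic tail. Another 35.5% ± 6.08 of the Itga6 TPM lay in a transcript without a reading frame. Tnc, the matrix protein tenascin C, had 70.7% ± 4.31 in a form of 2110 residues. Its gene level was 126, 48.8 and 140.3 TPM, lowest in library 2.

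Some metabolic and receptor genes held much of their estimated TPM in transcripts without a full reading frame. In Slc2a1, 53.9% ± 2.61 lay in the coding form of 492 residues and 45.8% ± 3.10 in a transcript annotated for nonsense-mediated decay. In Insr, 76.6% ± 3.52 lay in a short transcript with a retained intron and 22.3% ± 3.80 in the full coding one, which as shares of raw counts were 37.8% and 60.8%. Over all transcripts, protein-coding ones held 86.3, 85.8 and 86.6% of the TPM and retained introns 3.97, 3.57 and 3.79%. Other genes were nearly uniform: the leading forms of Itgb1, Ldha, Eno1 and Cdc42 held 99.7% ± 0.157, 97.1% ± 0.178, 97.2% ± 1.02 and 95.2% ± 0.126. Sox2 and Olig2 have a single annotated transcript in the table, and the full Nes transcript held 94.2, 83.0 and 91.1%.

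**Figure D5:**
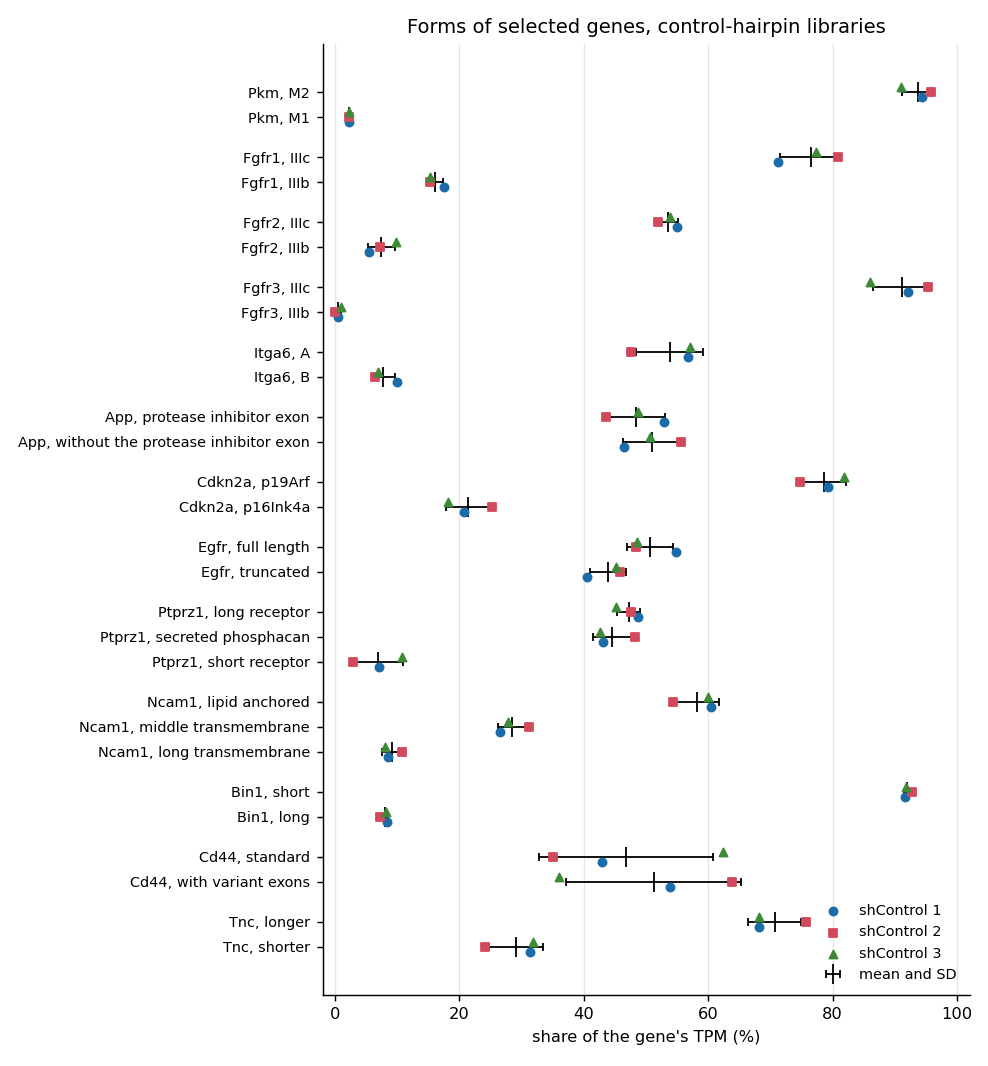
Share of the gene's TPM (x axis, percent) held by named forms (y axis, gene and form) in the 3 control-hairpin libraries; coloured symbols are libraries, ticks and bars are means and SDs. Of the forms drawn, Pkm M2, Fgfr3 IIIc and the short form of Bin1 lie farthest to the right in every library, and the forms of Cd44 and App change order between libraries.

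Few genes at 10 CPM or more differed by over 2-fold between the 3 libraries. Of 9403 genes at that level 215 had a highest library more than 2-fold above the lowest, and 2240 more than 1.5-fold. For 4890 of the 9403 library 2 was the farthest from the median, against 2858 for library 1 and 1655 for library 3. The 10 with the widest ratio were Gm28036, Gm4202, Pakap, Faxc, Fam13b, Simc1, Plagl1, Gbp9, Pcdhga6 and Fam135a, and in all of them library 2 was the lowest. Gm28036, the first, stood at 16.8, 2.35 and 20.003 CPM, a ratio of 8.50, and Fam135a, the tenth, at 26.7, 9.10 and 18.4 CPM, a ratio of 2.93. None of the 10 is in the gene lists described here.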

How the data were processed

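The series holds 15 libraries of sorted mouse neural progenitors, of which the 3 labelled shControl are described. The deposited table holds an expected count (an estimated number of reads) per Ensembl transcript and library, without normalization. The authors used cutadapt, RSEM and the build mm10, per the submitters' processing notes. Tool versions, settings, annotation and strand handling were not given in the sources used here. Among 111462 transcripts, 110203 were paired with a gene of GENCODE M21 (GRCm38, the assembly that mm10 names), 2497 of them without regard to version, and summed to 34989 genes. The other 1259 transcripts, with 0.583 to 0.637% of counts, and 1 blank row were left out. A symbol with several gene identifiers was read from the one with the most counts.

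CPM is counts per 1000000 gene counts of a library, with no scaling factor. TPM is computed from annotated transcript lengths, and an isoform's share is its TPM over that of its gene, so the shares inherit the authors' division of reads among transcripts. Forms were matched by a defining coding exon where one exists. Sequences are from the GENCODE M21 transcripts. Levels of a single group were described with no test. The members, the 39 gene lists and the rule for named genes were chosen with earlier results of these data known. The rule names the cell markers, the top 20 genes by CPM and by TPM, up to 8 leading members and the low defining members of each list, regional genes above 1 TPM, the leading transcripts of the isoform genes and the 10 most variable genes at 10 CPM or more; other genes, mainly members of families, were named after their values were seen. Alternatives were TMM and RLE factors (edgeR 4.0.16 in R 4.3.3, on rounded counts), a filter at 10 counts, thinning, other library sizes and lengths, raw-count isoform shares and leaving out each library. The level scripts were run on counts simulated from the same annotated lengths. That run checks the arithmetic and not the authors' division of reads among transcripts. Python 3.11.15, pandas 2.3.3, numpy 2.4.6, scipy 1.17.1 and matplotlib 3.10.9 were used. Noncoding RNA classes, LINE-1 and EGFP were not analysed here. Some genes of the lists that the rule would name are not reported here.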

Additional observations from a re-analysis of the deposited data

How the results depend on the processing

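Levels rest on 3 libraries of 1 group, and library 2 differs from the others with transcript length. The count of detected genes was 12459 and stayed between 12407 and 12501 under TMM or RLE factors, a filter at 10 counts, unpaired transcripts kept, thinning to the smallest library, removal of mitochondrial genes and Lars2, and leaving out each library (12407 to 12488). The share of counts in the top 100 genes, 21.5%, was 18.0% without mitochondrial genes and Lars2 and 20.3 to 22.2% when a library was left out. Of the top 100 genes by CPM, 64 stayed in the top 100 by TPM, and 94 to 99 stayed when a library was left out. Lists with a median of at least 1 TPM numbered 27 of 39, and 26 or 27 without each library. Isoform genes with a transcript above 50% numbered 42, and 40 to 43 without each library, 40 with lengths shortened by 200 bases and 48 by raw counts.

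Scaling by TMM or RLE moved none of 39 list medians by more than the spread between libraries. Lengths shortened by 200 bases moved 8 of 39 list medians, 7 of them lower, and lowered 4 of 46 isoform shares and 2 of 4 marker levels. Removal of mitochondrial genes and Lars2 raised 1 of 38 list medians and 2 of 8 marker levels. Raw counts in place of counts per length moved 27 of 46 isoform shares, among them Fgfr1 IIIb to 8.45%, full-length Egfr to 79.6%, long Ncam1 to 17.2%, Rtn4 C to 21.3% and coding Insr to 60.8%. Medians of lists near 0 moved by over 1.5 times when a library was left out: microglia and blood from 0.0107 to 0.00424 TPM without library 2, endothelium from 0.120 to 0.0751 TPM without library 1, and diencephalon and midbrain from 0.0264 to 0.0161 TPM without library 1 and 0.0124 TPM without library 3. The Fgfr3 IIIb share went from 0.446 to 0.207% without library 3. No paired analysis was possible because the values are levels of 1 group and come from no test.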
